A study of Mus musculus with 4 samples.

Results

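The 8 genes described here are the interleukin-1 (IL-1) family cytokines Il1a, Il1b and Il18, the receptor antagonist Il1rn, the receptors Il1r1, Il1r2 and Il1rap, and the inflammasome sensor gene Nlrp3. They were picked by gene symbol, with earlier results of these data known, and all 8 were found among the 31053 genes of the count matrices. The cells came from perfused, collagenase-digested lungs of Balb/c mice taken 14 days after 4T1 cells, a line from a mouse mammary carcinoma, had been given by vein, and were enriched for CD45, the surface marker of leukocytes, with magnetic beads. The injected cells were either 4T1 WT or PD-L1 knockout, and the host mice of both groups were of the same strain with no other treatment named in the labels. Each label, WT and PD-L1 KO, stood on 2 libraries, which are called by label and number (WT 1, PD-L1 KO 2) below. The deposited files bear names that conflict with these labels, KO on the libraries labelled WT and CK on those labelled KO. Groups follow the labels, and if the file names were right all directions below would turn. Nothing in the labels ties a library to a mouse of its own. The p-values therefore rest on how far apart these libraries lie, and that distance may be technical.

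The libraries held 2370 to 2736 barcodes and 17618220 to 19635983 UMIs, and 9054 of 10382 barcodes were kept as cells. A UMI (unique molecular identifier) stands for 1 captured RNA molecule. Median UMIs per kept cell were 4395 and 4617.5 under the WT label and 5101 and 5512 under the PD-L1 KO label. Any pair of libraries shared at most 3 barcodes. Cd274, the gene of PD-L1, had counts-per-million values (CPM, the share of a sum's UMIs) of 30.1 and 23.2 under the WT label and 46.3 and 38.8 under the PD-L1 KO label. Host cells also make this transcript and its counted end may lie outside the deleted part, so this does not check the labels. Clusters were named from marker genes as 12 classes, and "-like" marks such a class. A further 8 of 30 clusters, with 1757 cells, held markers of more than 1 lineage or class and were kept apart as mixed. The classes included endothelial-like, fibroblast-like and epithelial-like cells, which are not leukocytes.

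IL-1α and IL-1β are inflammatory cytokines that bind the receptor encoded by Il1r1, which then recruits the accessory chain encoded by Il1rap and signals through MyD88. The decoy receptor encoded by Il1r2 and the antagonist encoded by Il1rn bind the ligand or the receptor without signalling. IL-1β and IL-18 are made as precursors that caspase-1 cleaves within inflammasomes such as the one built on NLRP3, so a transcript count does not measure active cytokine. In the lung, neutrophils, monocytes and macrophages are known sources of IL-1β, and resident macrophages of IL-18.

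Il1a and Il1b are neighbours on chromosome 2 and are both read from the minus strand, 54598 bases apart. In the GENCODE M21 annotation of GRCm38, the assembly called mm10, Il1a spans 129299610 to 129309972 and Il1b 129364570 to 129371139. Il1b overlaps the antisense gene Il1bos, and Il1a overlaps Gm14023, also on the opposite strand. Il1r2, Il1rap and Il18 overlap opposite-strand genes too. Reads of such a pair could not be told apart if the counting ignored strand, which the labels do not state. The 250 bases before each start are shown because these neighbours differed in the classes that held their UMIs (described with their levels). The sequences are from RefSeq (GRCm38.p6), with chr2:129309973-129310222 for Il1a and chr2:129371140-129371389 for Il1b, both 5′ to 3′ on the minus strand, and capitals mark TATAAA.
Il1a: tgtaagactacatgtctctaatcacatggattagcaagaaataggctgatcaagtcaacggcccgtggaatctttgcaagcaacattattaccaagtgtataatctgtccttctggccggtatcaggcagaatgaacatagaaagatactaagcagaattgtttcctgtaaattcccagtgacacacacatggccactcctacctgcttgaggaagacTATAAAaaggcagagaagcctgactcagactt
Il1b: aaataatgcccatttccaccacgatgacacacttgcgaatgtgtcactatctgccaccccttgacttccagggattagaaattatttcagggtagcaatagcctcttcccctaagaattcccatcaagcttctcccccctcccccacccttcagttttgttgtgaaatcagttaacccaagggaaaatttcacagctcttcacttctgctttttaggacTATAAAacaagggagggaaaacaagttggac
TATAAA began 32 bases before the Il1a start and 31 bases before the Il1b start. It was found on the gene's own strand in these 2 of the 8 members, over 12 RefSeq promoter windows of 300 bases (250 before to 50 after the start). On the opposite strand TATAAA was also in an Il1rn window and in the Il18 window. On either strand, 13.6% of all 32851 such windows held TATAAA, and the share on the gene's own strand alone was not counted. Of the other motifs, GAGGAA, a core of sites of the myeloid factor PU.1, was in 28.3% of windows and the string TTGCNNNAA in 9.56%. TGANTCA, an AP-1 site, was in 7.81% and the κB motif in 5.805%. Both strands were searched for each. The Il1a window held 1 GAGGAA and 1 TGANTCA, neither overlapping TATAAA, and the Il1b window held none of these 4 other motifs. These are letter matches, not binding sites.

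Il1b, the gene of IL-1β, was highest in neutrophil-like cells in every library. Counts of a class were summed per library and scaled to the CPM of that class. Neutrophil-like cells held 22663 CPM in WT 1, 25721 in WT 2, 23217 in PD-L1 KO 1 and 19161 in PD-L1 KO 2. The groups overlapped, and the range did not overlap that of monocyte/macrophage-like cells, the next class. Of 1403 neutrophil-like cells 99.8% held an Il1b UMI, at a median depth of 1571 to 1951 UMIs per cell. After each cell was thinned to 1000 UMIs the share was 98.9% to 100% by library. The thinning left out 12 to 33 shallower cells per library. In B-like cells, which should lack the transcript, 5.03% to 8.67% of cells had an Il1b UMI at median depths of 2758.5 to 2840 UMIs, and 2.04% to 3.54% after thinning.

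Neutrophil-like cells formed 2 clusters, which differed in the CPM of Il1b. In the cluster led by Hdc and Csf3r, with 933 cells, Il1b stood at 24259 to 27163 CPM, and the median cell held 34 to 47 Il1b UMIs by library. In the cluster of 470 cells led by Retnlg, with the granule protein genes Ngp and Mmp8 among its leading genes, it stood at 14571 to 23102 CPM. The 2 ranges did not overlap. Counted per cell the order was the other way, with a median of 35 to 53 Il1b UMIs in the Retnlg cluster, above the Hdc cluster in every library, at median depths of 2217.5 to 2431.5 against 1401 to 1705 UMIs per cell. Since the clusters came from the same cells, this is a description with no test, although the 8 members were left out of the genes used for clustering. The Hdc cluster made up 70.8% and 73.7% of neutrophil-like cells under the WT label and 58.2% and 62.8% under the PD-L1 KO label.

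Monocyte/macrophage-like cells held 1871 and 2342 CPM of Il1b under the WT label and 2771 and 1621 under the PD-L1 KO label. A UMI was present in 86.2% of these 1159 cells, and in 58.6% to 75.2% by library after thinning. The class joined 3 clusters, one led by Cxcl9, the complement genes C1qa, C1qb and C1qc, and the metalloprotease gene Mmp12, one led by F13a1 and Ly6c2, genes of classical monocytes, and one led by Adgre4 and Treml4, genes of nonclassical monocytes. Il1b stood at 1583 to 2662 CPM in the C1q cluster, 1872 to 3425 in the F13a1 cluster and 1449 to 2223 in the Adgre4 cluster, so these ranges overlapped.

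S100a8 and S100a9, which encode the neutrophil protein calprotectin and are defining markers of the neutrophil class, were measured beside Il1b because neutrophil RNA can enter other cells' droplets. Per 100 UMIs of S100a8 and S100a9 together there were 5.62 to 25.8 UMIs of Il1b in the neutrophil-like clusters by library. The F13a1 cluster had 558 to 3406 per 100 and the Adgre4 cluster 194 to 1054. Alveolar macrophage-like cells had 80.2 to 1215 per 100. Those 3 ranges lay above the whole neutrophil-like range in every library. The C1q cluster had 18.7 to 46.8 per 100, which overlapped the neutrophil-like range, at 4775 to 13011 CPM of S100a8 and S100a9. The part of neutrophil RNA in its Il1b level was not tested.

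**Figure D1:**
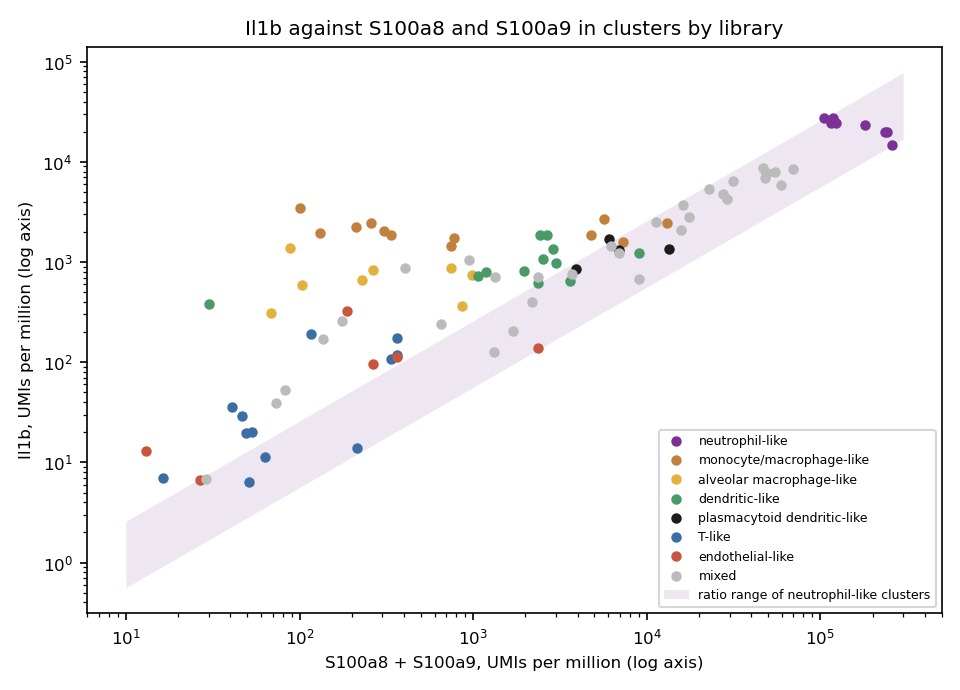
Il1b against the sum of S100a8 and S100a9, both in CPM on log axes, with 1 point per cluster and library and the class in colour, and a band for the ratio range of the neutrophil-like clusters (5.62 to 25.8 Il1b UMIs per 100). Points at 0 on either axis are not drawn. Several monocyte/macrophage-like and the alveolar macrophage-like points lie far above the band, and the mixed clusters with most Il1b lie within it.

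Alveolar macrophages are the resident phagocytes of the airspace. Alveolar macrophage-like cells held 792 and 736 CPM of Il1b under the WT label and 1286 and 835 under the PD-L1 KO label. The groups did not overlap. If labels were dealt at random, 2 libraries against 2 would part in this way, in either direction, in 0.333 of cases. This holds for every such separation of groups reported here, and the share of all genes that parted was not counted. Dendritic-like cells held 895 to 1237 CPM, with overlapping groups. Among them the cluster led by Cd209a, a gene of type 2 dendritic cells, held 971 to 1871 CPM and that led by Xcr1, a gene of type 1 dendritic cells, 650.5 to 823.

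In plasmacytoid dendritic-like, endothelial-like and T-like cells a few cells held most of the Il1b UMIs. Plasmacytoid dendritic-like cells stood at 855 to 1686 CPM, but 3 to 7 cells per library with at least 10 Il1b UMIs held 96.1% to 100% of them. Those cells also held 561 to 6311 S100a8 and S100a9 UMIs per library, nearly all of the class's UMIs of these genes. In endothelial-like cells 1 or 2 cells per library held 76.7% to 98.0% of the Il1b UMIs. Of the class's S100a8 and S100a9 UMIs they held 141 of 162 in WT 1 and 267 of 294 in WT 2. In PD-L1 KO 1 they held 80 of 88 and in PD-L1 KO 2 871 of 891. In T-like cells 1 to 4 cells held 69.7% to 81.8% of the Il1b UMIs. Their S100a8 and S100a9 UMIs were 139 of 228, 110 of 253, 60 of 122 and 99 of 185, in the same library order. In B-like cells of PD-L1 KO 2, 1 cell held 48 of 53 Il1b UMIs, with 0 UMIs of S100a8 and S100a9. No other library had a B-like cell with 10 or more. Of NK-like cells, 1 cell of WT 2 held 19 of 22 Il1b UMIs and 148 of 159 S100a8 and S100a9 UMIs. The other libraries had 6 to 12 Il1b UMIs and no NK-like cell with 10 or more.

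The other IL-1 receptor ligand, Il1a, was found mainly in alveolar macrophage-like cells, which held 54.5% of its UMIs (mean of the 4 libraries, 42.9% to 62.3%). They held 112 and 144 CPM under the WT label and 196 and 74.5 under the PD-L1 KO label. The 2 libraries labelled PD-L1 KO were thus the highest and the lowest. Among monocyte/macrophage-like cells Il1a stood at 45.1 to 98.3 CPM in the C1q cluster, at 1.31 to 8.38 in the F13a1 cluster and at 0 UMIs in all libraries in the Adgre4 cluster, which had Il1b. In the endothelial-like cluster led by Ednrb, Ly6c1 and Kdr, with 103 cells, it stood at 39.2 to 174 CPM with 28.2% of cells positive, while Il1b was at 0 to 13.1 CPM there. Neutrophil-like cells held 41 UMIs of Il1a in 4 libraries, of which 31 were in 7 cells of PD-L1 KO 1. Their level was 5.60 CPM in WT 1, 4.00 in WT 2, 48.7 in PD-L1 KO 1 and 3.80 in PD-L1 KO 2.

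Il18, whose product drives interferon-γ release by NK and T cells, was a gene of alveolar macrophage-like cells, which held 82.2% of its UMIs (78.2% to 87.5% by library). The level was 594 and 540 CPM under the WT label and 572 and 544 under the PD-L1 KO label. The groups overlapped in a narrow range, which stood apart from all other classes. Of 1010 cells, 98.0% held an Il18 UMI at median depths of 9777 to 11755.5 UMIs, and 41.4% to 46.7% after thinning. Monocyte/macrophage-like cells were next, at 31.7 to 36.9 CPM. Their C1q and F13a1 clusters stood at 31.2 to 45.1 and 37.2 to 40.8 CPM, and the Adgre4 cluster at 10.8 to 20.5.

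**Figure D2:**
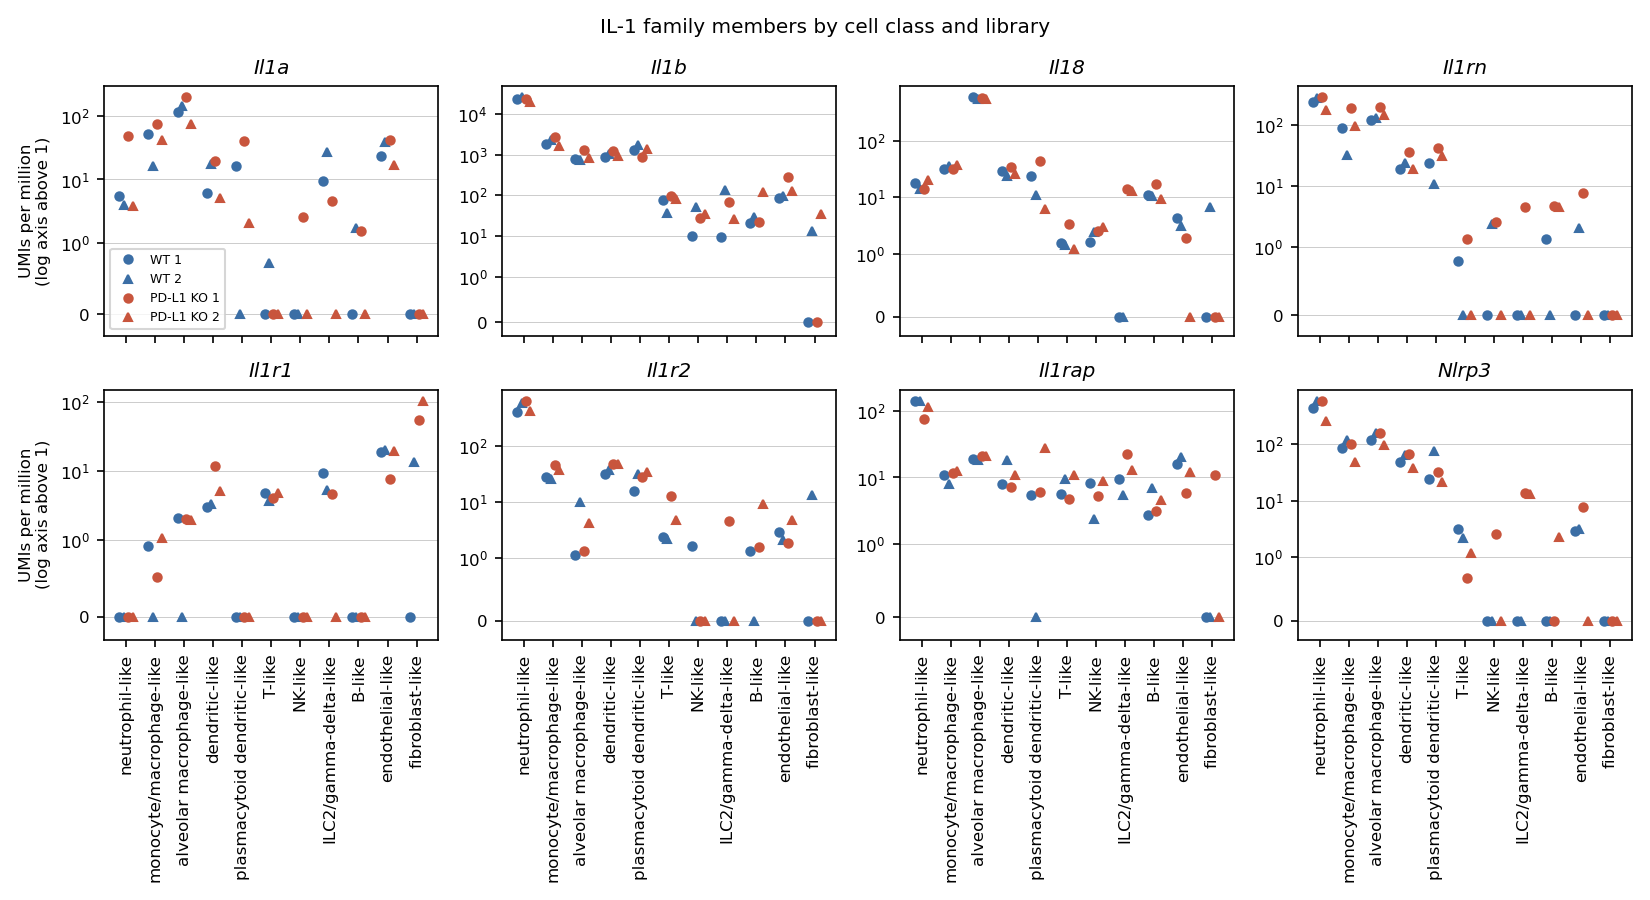
CPM of each member in 11 classes (columns) and 4 libraries, on an axis that is linear below 1 and logarithmic above it, with circles for library 1 and triangles for library 2 of each label and blue for WT and red for PD-L1 KO. Among the classes drawn, Il1b and Il1r2 peak in neutrophil-like cells, Il18 and Il1a in alveolar macrophage-like cells and Il1r1 in fibroblast-like and endothelial-like cells. Epithelial-like cells, 14 in all, are not drawn.

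Il1rn encodes the IL-1 receptor antagonist, which occupies the receptor without signalling. Its mean was highest in neutrophil-like cells, at 243 and 274 CPM under the WT label and 290 and 176 under the PD-L1 KO label. Alveolar macrophage-like cells held 120 and 131 CPM under the WT label and 196 and 146 under the PD-L1 KO label. Their range overlapped that of neutrophil-like cells. In monocyte/macrophage-like cells the levels were 91.0 and 32.7 against 189 and 96.4 CPM, and the groups did not overlap there or in alveolar macrophage-like cells.

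Within the monocyte/macrophage class Il1rn belonged to the C1q cluster, at 51.9 to 246 CPM and with 58.8% of cells positive. The F13a1 and Adgre4 clusters stood at 18.7 to 32.1 and 8.79 to 25.3 CPM. The C1q cluster made up 41.8% and 21.1% of the class in WT 1 and WT 2 and 54.3% and 60.2% in the libraries labelled PD-L1 KO. In WT 2 the F13a1 cluster was the largest, at 42.6%. Inside the C1q cluster Il1rn stood at 124 and 51.9 CPM under the WT label and 246 and 116 under the PD-L1 KO label, and there the groups overlapped. The part of the makeup in the class difference was not tested.

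The balance of antagonist to IL-1β differed between classes. Alveolar macrophage-like cells held 15.2 to 17.8 Il1rn UMIs per 100 Il1b UMIs by library, and neutrophil-like cells 0.919 to 1.25. Monocyte/macrophage-like cells lay between, at 1.40 to 6.81. These are ratios of counted 3′ ends and do not measure protein.

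Il1r1, the signalling receptor, had 337 UMIs in all kept cells. No UMI was found in 1403 neutrophil-like, 506 NK-like, 661 B-like and 138 plasmacytoid dendritic-like cells. For neutrophil-like cells a count of 0 allows up to 3.36 to 6.01 CPM by library (3 counts of the total), so a low level was not detectable at this depth. Fibroblast-like cells held 0 and 13.5 CPM under the WT label and 55.3 and 104 under the PD-L1 KO label, from 10 UMIs in 157 cells. Endothelial-like cells held 18.9, 20.1, 7.67 and 19.3 CPM in the same library order, and the Ednrb cluster 13.1 to 55.1. Epithelial-like cells, 14 in all, held 26 UMIs of Il1r1, at 9.32 to 49.99 CPM by library. An Il1r1 UMI was found in 78.6% of them, at a median depth of 60155.5 UMIs per cell. Mixed clusters held 48.0% of the Il1r1 UMIs, and one of them, led by the epithelial surfactant gene Sftpc with endothelial and fibroblast markers, had 32.7% of its 321 cells positive at 16.1 to 24.97 CPM. Among leukocytes the Cd209a dendritic-like cluster stood at 4.86 to 26.6 CPM and the T-like cluster led by Cxcr6, Ctla4 and Foxp3, a gene of regulatory T cells, at 8.51 to 11.8.

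Il1r2, the decoy receptor, was highest in neutrophil-like cells. They held 400 CPM in WT 1, 581 in WT 2, 634 in PD-L1 KO 1 and 413 in PD-L1 KO 2, with overlapping groups, and 54.7% of cells were positive. The next classes were dendritic-like cells, at 31.4 and 37.3 CPM under the WT label and 47.4 and 47.1 under the PD-L1 KO label, and monocyte/macrophage-like cells, at 27.7 and 26.2 against 45.7 and 37.5. In both the groups did not overlap. The Cd209a dendritic-like cluster held 56.7 and 51.0 CPM under the WT label and 65.4 and 84.0 under the PD-L1 KO label, and the Xcr1 cluster 21.9 and 18.0 against 22.4 and 18.5. The Cd209a cluster made up 35.2% and 32.0% of dendritic-like cells under the WT label and 42.4% and 42.5% under the PD-L1 KO label, and the Xcr1 cluster 48.9% and 54.6% against 39.1% and 32.1%. The part of this makeup in the class difference was not tested. The C1q cluster held 33.0 to 54.2 CPM. Alveolar macrophage-like cells held 1.17 to 10.2 CPM and NK-like cells 1 UMI.

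Il1rap, the accessory chain that Il1r1 needs to signal and that also pairs with receptors for IL-33 and IL-36, was also highest in neutrophil-like cells. Its level was 143 and 140 CPM under the WT label and 75.3 and 115 under the PD-L1 KO label, and the groups did not overlap. In the Hdc cluster it stood at 166 and 152 against 95.7 and 142, and in the Retnlg cluster at 108 and 118 against 56.9 and 91.4, so the groups were apart in both. Alveolar macrophage-like cells held 18.3 to 21.3 CPM, and every named class after it had a lower mean. The range of the endothelial-like cells, the next class, overlapped theirs.

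Nlrp3 encodes the sensor on which the NLRP3 inflammasome assembles. Neutrophil-like cells held 424 and 565 CPM under the WT label and 556 and 249 under the PD-L1 KO label. Alveolar macrophage-like cells held 118 and 153 against 151 and 96.6, monocyte/macrophage-like cells 84.0 and 116 against 100.1 and 48.2, and dendritic-like cells 47.6 and 62.1 against 66.1 and 37.0. PD-L1 KO 2 was the lowest library in all 4 classes, and the groups overlapped in each. T-like, NK-like and B-like cells held 9, 1 and 1 UMIs.

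**Figure D3:**
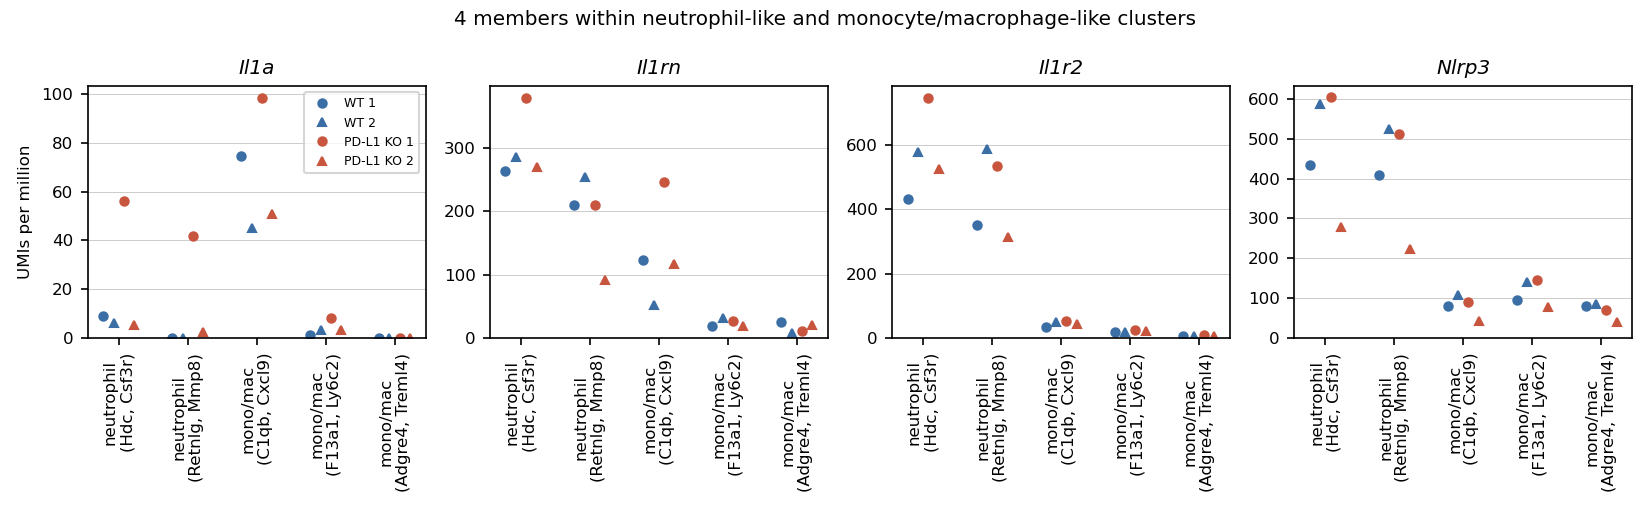
CPM (linear axes) of Il1a, Il1rn, Il1r2 and Nlrp3 in the 2 neutrophil-like and 3 monocyte/macrophage-like clusters, named by leading genes, with 1 point per library. PD-L1 KO 2 is the lowest library for Nlrp3 in all 5 clusters, and Il1rn and Il1a among monocyte/macrophage-like cells are highest in the C1qb cluster.

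**Figure D4:**
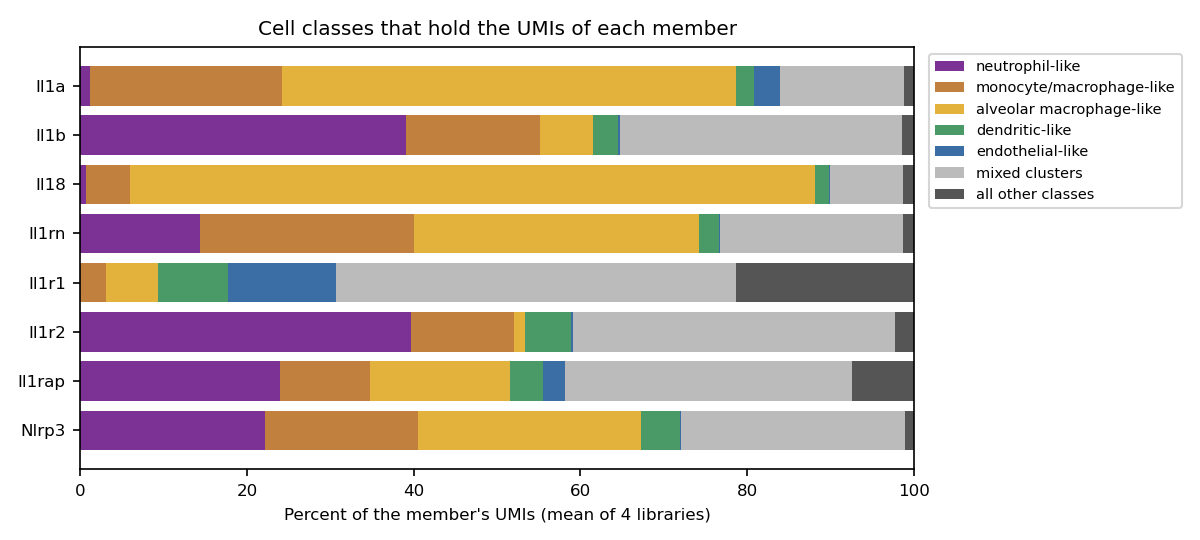
Share of each member's UMIs by class, as the mean of the percentages in the 4 libraries, with bars from 0 to 100%. Alveolar macrophage-like cells hold 82.2% of Il18 and 54.5% of Il1a, neutrophil-like cells 39.1% of Il1b and 39.6% of Il1r2, and mixed clusters 33.8% of Il1b and 48.0% of Il1r1.

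The comparison of groups asks how these genes differed in lungs with tumour cells lacking PD-L1. No member passed edgeR's quasi-likelihood test at a Benjamini-Hochberg adjusted p of 0.05 in any of the 9 fits (whole libraries and 8 classes), and DESeq2 also called 0. Over whole libraries 0 of 8 members were called, and percent called over the 13990 genes tested was 0. At an unadjusted p under 0.05 there was 1 member by edgeR and 1 by DESeq2. By edgeR 3.87% of all genes tested had such a p. In whole libraries fewer cells of a type and less RNA per cell cannot be told apart. Neutrophil-like cells made up 18.6% and 11.3% of cells under the WT label and 12.9% and 19.6% under the PD-L1 KO label.

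Over whole libraries Il1r2 had the smallest p among the members. It stood at 44.7 and 45.3 CPM under the WT label and 56.3 and 53.5 under the PD-L1 KO label (log2 difference 0.35, SE 0.098, edgeR adjusted p = 0.751, from 0.31 to 0.40 when 1 library was left out). Il1rn stood at 66.2 and 45.6 against 100.3 and 72.6 CPM (log2 0.68, SE 0.27, edgeR adjusted p = 0.751). Without WT 1 the Il1rn difference was 1.04 (edgeR adjusted p = 0.00521) and that of Il18 0.54 (edgeR adjusted p = 0.0137, against 0.10 with all 4 libraries and -0.23 without WT 2). In that fit edgeR called 2258 genes. The other differences over whole libraries were 0.43 for Il1a, 0.11 for Il1b, -0.16 for Il1r1, -0.13 for Il1rap and -0.13 for Nlrp3. Each of these 5 changed sign when a certain library was left out.

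In neutrophil-like cells 0 of 6 members tested were called, and percent called over 4705 genes was 0.149. No member had an unadjusted p under 0.05 by edgeR, and 1, Il1a, did by DESeq2. Over all genes tested the edgeR share was 6.14%. Il1rap had the smallest edgeR p of the members, with a log2 difference of -0.47 (SE 0.23, edgeR adjusted p = 0.828), and its sign held with each library left out (-0.82 to -0.22). Differences were -0.09 (SE 0.16) for Il1b, 0.20 (SE 0.22) for Il1r2, -0.06 (SE 0.22) for Il1rn and -0.20 (SE 0.29) for Nlrp3. The Nlrp3 difference turned on single libraries. It was -0.88 without PD-L1 KO 1 (edgeR adjusted p = 0.0276) and 0.28 without PD-L1 KO 2. Il1a did not pass the filter on low counts in this class. With no filter it was called at a log2 of 2.32, in a fit that called 47 of 12593 genes. Without PD-L1 KO 2 its log2 difference was 3.32, where PD-L1 KO 1 held 31 of its UMIs.

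In monocyte/macrophage-like cells 0 of 7 members tested were called, and percent called over 10187 genes was 0. By edgeR 2 members, Il1r2 and Il1rn, and by DESeq2 0 had an unadjusted p under 0.05. Such an edgeR p was found for 6.70% of all genes tested. The Il1r2 difference was 0.62 (SE 0.19, edgeR adjusted p = 0.734) and stayed between 0.47 and 0.77 with single libraries left out. That of Il1rn was 1.14 (SE 0.45, edgeR adjusted p = 0.734) and ran from 0.59 without PD-L1 KO 1 to 2.13 without WT 1. With the replicate number as a block it was 1.28 (edgeR adjusted p = 0.00363). With clusters at resolution 2 it turned to -0.23, where the class held fewer cells. These were 185 in WT 1, 181 in WT 2, 178 in PD-L1 KO 1 and 140 in PD-L1 KO 2. At resolution 1 they were 292, 204, 339 and 324. In the fit as reported Il1b differed by 0.07 (SE 0.24).

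In alveolar macrophage-like cells 0 of 7 members tested were called, and percent called over 9685 genes was 0.0826. Il1rn and Il1b had an unadjusted p under 0.05 by edgeR, and 1 member, Il1rn, by DESeq2. Of all genes tested, 9.63% had such a p by edgeR. The Il1rn difference was 0.48 (SE 0.14, edgeR adjusted p = 0.364) and that of Il1b 0.50 (SE 0.17, edgeR adjusted p = 0.441). Leaving out PD-L1 KO 2 raised them to 0.68 and 0.78, and both were then called by edgeR (adjusted p = 0.0482 and 0.0029). Leaving out PD-L1 KO 1 gave 0.24 and 0.14. Both were also called with no filter on low counts, at the same size, in a fit that called 330 of 14901 genes. S100a8 stood at 119 and 341 CPM under the WT label and 56.5 and 324 under the PD-L1 KO label in this class. The mean share of these cells with an S100a8 UMI was 27.2% (SD 0.25) under the WT label. Under the PD-L1 KO label it was 38.4% (SD 0.51). The part of neutrophil RNA in the Il1b difference was not tested. Il18 differed by 0.0026 (SE 0.078) and Il1a by 0.14 (SE 0.36). The Il1a difference became -0.75 without PD-L1 KO 1.

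In dendritic-like cells 0 of 7 were called (percent called over 8124 genes 0; unadjusted p under 0.05 for 0 members by edgeR and 0 by DESeq2), with Il1r2 at a log2 of 0.44 (SE 0.22), which turned to -0.049 with the strict cell filter. The other 4 classes had 1 to 3 members to test. In T-like cells 0 of 2 were called (percent called 0.111; unadjusted p under 0.05 for 1 by edgeR and 0 by DESeq2), and in NK-like cells 0 of 1 (percent called 0.284; 0 and 0). In B-like cells 0 of 1 was called (percent called 0.0165; 1 and 0), and in endothelial-like cells 0 of 3 (percent called 0.0134; 1 and 1). In each of the 3 classes with such a p by edgeR, the member was Il1b. Over all genes tested, such a p by edgeR was found for 7.27% in dendritic-like and 7.72% in T-like cells. The share was 6.21% in NK-like, 3.69% in B-like and 5.44% in endothelial-like cells.

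Il1b in endothelial-like cells stood at 87.2 and 96.3 CPM under the WT label and 290 and 126 under the PD-L1 KO label (log2 1.21, SE 0.28, edgeR adjusted p = 0.260). Of 151 UMIs in PD-L1 KO 1, 148 were in 2 cells. Those cells also held 80 of the class's 88 S100a8 and S100a9 UMIs in that library. The part of neutrophil RNA in the Il1b difference was not tested. The difference was called by edgeR without WT 1 (1.13), without WT 2 (1.29) and without PD-L1 KO 2 (1.66), and was 0.45 without PD-L1 KO 1. In T-like cells Il1b stood at 78.8 and 36.4 against 97.0 and 79.5 CPM (log2 0.62, SE 0.25, edgeR adjusted p = 0.578), and without WT 1 the difference was 1.23 and called, against 0.20 without WT 2. Of 358 Il1b UMIs in T-like cells, 315 were in the cluster led by Cxcr6, at 107 to 190.0 CPM with overlapping groups. That cluster made up 39.0% and 28.4% of T-like cells under the WT label and 44.5% and 54.1% under the PD-L1 KO label, and the part of this makeup was not tested. In B-like cells it stood at 20.5 and 29.7 against 22.2 and 122 CPM (log2 1.41, SE 0.55, edgeR adjusted p = 0.999). Without PD-L1 KO 2, whose level came from 1 cell, that difference was -0.22, and without PD-L1 KO 1 it was 2.32 and called.

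**Figure D5:**
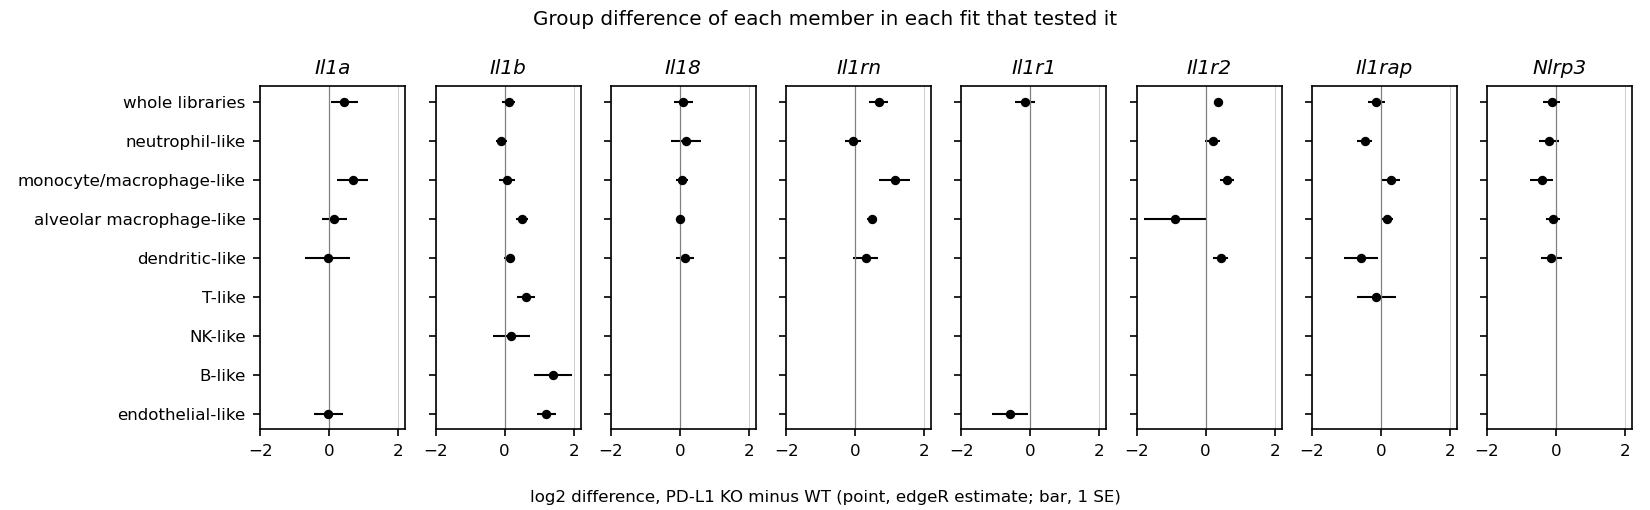
Log2 difference of each member, PD-L1 KO minus WT, in each fit that tested it, with points for the edgeR estimate and bars of 1 SE. No point passed at an adjusted p of 0.05, and the points furthest from 0 are Il1b in B-like (1.41) and endothelial-like cells (1.21) and Il1rn in monocyte/macrophage-like cells (1.14).

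The rest of the pathway was read from 3 gene lists. Of 14 other IL-1 family ligands, binding proteins and receptors, 8 were tested over whole libraries and 0 were called (3 higher, median log2 -0.05, against -0.02 for all genes). Of 18 inflammasome and processing genes, 17 were tested and 0 called (13 higher, median 0.16), and of 20 receptor signalling genes all 20 were tested and 0 called (10 higher, median -0.0044). At an unadjusted p under 0.05 there were 1, 0 and 1 of them by edgeR, against 3.87% of all genes tested. Across the 8 classes, 1 list gene was called by edgeR in 1 class. It was Txnip, whose product binds thioredoxin, in NK-like cells, at 385 and 410 CPM under the WT label and 554 and 777 under the PD-L1 KO label (log2 0.75, SE 0.15, edgeR adjusted p = 0.0157). It was 0.47 without PD-L1 KO 2 and 0.67 without WT 1, and was then not called (edgeR adjusted p = 0.913 and 0.132), nor was it by DESeq2 or, at 0.68, with no cell filter (edgeR adjusted p = 0.0766).

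The IL-18 receptor genes were highest in other classes than Il18. Il18r1, the ligand-binding chain, stood at 218 to 272 CPM in NK-like and 77.9 to 120.1 in T-like cells, and at 0 to 3.02 in alveolar macrophage-like cells. Il18rap, the second chain, stood at 422 to 521 CPM in NK-like cells and at 222 to 257 in neutrophil-like cells, where Il18r1 was at 4.48 to 8.01. Il18bp, the secreted IL-18 inhibitor, stood at 10.2 and 5.54 CPM under the WT label and 23.9 and 22.5 under the PD-L1 KO label in alveolar macrophage-like cells (log2 1.52, SE 0.27, edgeR adjusted p = 0.136), and it was not called by DESeq2 (1.55) or with the replicate block (1.55). With single libraries left out its log2 difference ran from 1.20 (without WT 2) to 2.08 (without WT 1). It was also not called by edgeR with the strict cell filter (1.81), doublets kept (1.56) or resolution 0.5 (1.54). It was called by edgeR with no filter on low counts (1.52), no cell filter (2.09), resolution 2 (1.80) and the per-cell marker gate (1.85). A block that pairs library numbers crosswise, added after the data were seen, also called it (1.54). Over whole libraries it stood at 23.6 and 12.4 against 31.0 and 36.5 CPM (log2 0.96, SE 0.35, edgeR adjusted p = 0.751), and the difference was 1.56 without WT 1 (edgeR adjusted p = 0.000616) and 0.53 without WT 2. Il36g, an IL-1 family ligand named Il1f9 in the files and chosen after its values were seen, stood at 238 to 298 CPM in neutrophil-like cells and at 5.09 to 13.1 in monocyte/macrophage-like cells.

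Among inflammasome genes, Pycard, the adaptor that links NLRP3 to caspase-1, stood at 129 to 190 CPM in monocyte/macrophage-like and 176 to 214 in NK-like cells, and at 6.01 to 31.7 in neutrophil-like cells. Casp8, an initiator caspase, was at 106 to 144 CPM in alveolar macrophage-like and 15.2 to 23.5 in neutrophil-like cells. Of the signalling genes, Nfkbia, which encodes the NF-κB inhibitor IκBα, stood at 2741 to 3326 CPM in neutrophil-like cells and 557 to 912 in monocyte/macrophage-like cells. Nfkbiz, a nuclear relative induced by IL-1, was at 720.5 to 1284 and 238 to 430 CPM in these classes. Nfkb1, the p50 subunit gene, was lower in neutrophil-like cells, at 75.3 to 108 CPM, than in monocyte/macrophage-like cells, at 149 to 212.

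Genes with the most similar pattern were ranked by Pearson's r of log2(CPM + 1) over 48 sums of class and library, among 13716 genes. The sums of a library share their depth and the classes are the same cells, so r is a description. For Il1b they were Csf3r (0.95), the G-CSF receptor gene, Wfdc17 (0.94) and Ccr1 (0.94), and for Il1r2 they were Asprv1 (0.91), Acod1 (0.91) and Retnlg (0.89). For Il1rn they were Klra2 (0.94), Ccr1 (0.93) and Clec5a (0.93), and for Il18 they were Ear2 (0.89), Ltc4s (0.86) and Slc7a2 (0.84). For Il1a they were Tbxas1 (0.82), Sdc3 (0.80) and Zfp991 (0.80), and for Il1r1 they were Ryk (0.85), Rbfox2 (0.82) and Nckap1 (0.80). Il1rap had Pithd1 (0.75), Hdac4 (0.75) and Tmcc1 (0.74), and Nlrp3 had Siglece (0.96), Gm5150 (0.94) and C130050O18Rik (0.93). With a pseudocount of 10 in place of 1, 12 of the 24 named genes were named again, and none for Il1rap or Nlrp3.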

How the data were processed

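Droplet single-cell RNA sequencing (10x Genomics 3′ kit, version 3) was done on 4 libraries, per the labels' protocols. The submitters' processing notes name Cell Ranger 3.1.0, STAR and mm10. The annotation release and strand setting are not given in the sources used here. What the authors deposited are UMI counts per gene and barcode, not normalized. No barcode held fewer than 500 UMIs, so shallower ones are not analysed here.

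Barcodes with fewer than 200 genes or over 10% mitochondrial UMIs were left out (1126), as were 216 barcodes (2.08%, 14 of them among the former) with the highest Scrublet scores, at 0.8% per 1000 barcodes. Cells were clustered (scanpy 1.11.5, leidenalg 0.10.2; 2000 variable genes without the members and lists, 30 components, 15 neighbours, resolution 1). A cluster was named when at least 3 markers of a class were each found in 25% of its cells. It was called mixed when a second lineage reached 0.5 of its own marker list. It was also called mixed when any other class had more markers than the first among its top 10 genes. The rule on mixed clusters was set after the clusters had been seen, and they held 16.2% of kept cells in WT 1, 24.6% in WT 2, 17.5% in PD-L1 KO 1 and 19.3% in PD-L1 KO 2.

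Counts were summed per library and class, and classes with at least 20 cells in every library were tested. Sums were tested in edgeR 4.0.16 (R 4.3.3) by quasi-likelihood with TMM scaling and filterByExpr, as PD-L1 KO minus WT, with Benjamini-Hochberg adjustment over all genes tested in a fit and a threshold of 0.05. With 2 libraries against 2 there are 2 residual degrees of freedom, and an exact permutation test could not go below p = 0.333 (two-sided). Alternatives were DESeq2 1.42.0, no filter on low counts, other cell filters, doublets kept, other resolutions (0.5 and 2), a per-cell marker gate, each library left out, and a replicate block. Shares and limits for 0 (3 counts) cover counting error only. The script was tested on simulated data.

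The members and gene lists were chosen with earlier results of these data known. Named genes were all 8 members, the list genes that passed a test, otherwise the 3 of each list with the highest mean CPM, and the 3 genes most correlated with each member. Il36g, Il1rl1 and Il33 fall outside this rule and were named after their values were seen. Il36rn was not matched in the files by symbol and Il36a, Il36b, Il1f10 and Il1rapl2 had 0 UMIs. The numbers in the titles do not mark a shared mouse or day in the labels.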

Additional observations from a re-analysis of the deposited data

How the results depend on the processing

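The count of called members was 0 in all 9 fits as reported, and it moved under these alternatives. Leaving out each library gave 0 to 2 over whole libraries and in alveolar macrophage-like cells, 0 to 1 in neutrophil-like, T-like, B-like and endothelial-like cells, and 0 in the other 3 classes. With no filter on low counts it was 1 in neutrophil-like (Il1a), 2 in alveolar macrophage-like (Il1b, Il1rn), 1 in B-like and 1 in endothelial-like cells (Il1b). Over all genes tested these fits called 47 of 12593, 330 of 14901, 26 of 13222 and 64 of 14495, in the same order. Il1b was also the 1 called member of endothelial-like cells with no cell filter (log2 3.70), the strict cell filter (4.84) and resolution 2 (1.46). It was the 1 called member of NK-like cells with the per-cell marker gate (2.31). Over all genes tested these fits called 5 of 7260, 8 of 4744, 5 of 7171 and 26 of 4836. The replicate block gave 1 in monocyte/macrophage-like cells (Il1rn, log2 1.28) and changed no other count. Deviations of same-numbered libraries correlated at -0.33 over whole libraries and -0.18 to 0.014 in the classes. Whether these libraries share a mouse, day or batch cannot be told from this. Over all genes tested, the fits as reported called 0 in whole libraries, 7 in neutrophil-like, 0 in monocyte/macrophage-like, 8 in alveolar macrophage-like and 0 in dendritic-like cells, DESeq2 19, 4, 0, 22 and 14, and the replicate block 0, 4, 82, 8 and 1. A crossed replicate block, chosen after seeing the data, called 1 member in alveolar macrophage-like and 1 in B-like cells. Over all genes tested it called 167 of 9685 and 25 of 6071 in these classes.

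Of 27 log2 differences, 10 kept their sign under all alternatives run. Other cell filters, other resolutions and the marker gate also changed which cells a class held. The 26 reversals of 349 alternative values were as follows, and the cause was not tested. Without PD-L1 KO 1 they were, over whole libraries, Il1a -0.23 and Il1rap 0.14, in neutrophil-like cells Il1r2 -0.14, in monocyte/macrophage-like cells Il1b -0.38 and in alveolar macrophage-like cells Il18 -0.045 and Il1a -0.75. Without PD-L1 KO 2 they were Nlrp3 0.18 over whole libraries, Il1b 0.044, Il1rn 0.27 and Nlrp3 0.28 in neutrophil-like and Il1b -0.22 in B-like cells. Without WT 1 they were Il1rap 0.032 over whole libraries, Il1r2 -0.0085 in neutrophil-like, Il1b -0.086 in monocyte/macrophage-like and Il1a -0.051 in alveolar macrophage-like cells. Without WT 2 they were Il1b -0.11, Il1r1 0.21 and Il18 -0.23 over whole libraries and Il18 -0.064 in alveolar macrophage-like cells. Other settings reversed Il1rn in monocyte/macrophage-like cells (-0.23, resolution 2), Il18 (-0.0019 with no cell filter, -0.020 with the gate) and Il1a (-0.00076, crossed block) in alveolar macrophage-like cells, Il1r2 in dendritic-like cells (-0.049, strict filter), and Il1b in T-like (-0.050, no cell filter) and B-like cells (-0.92, gate). With single libraries left out, the ends of the ranges opposite to these reversals were, over whole libraries, 0.88 (Il1a), 0.39 (Il1b), -0.43 (Il1r1), -0.46 (Il1rap), 0.54 (Il18) and -0.51 (Nlrp3). In neutrophil-like cells they were -0.24 (Il1b), -0.46 (Il1rn), 0.49 (Il1r2) and -0.88 (Nlrp3), in monocyte/macrophage-like cells 0.41 (Il1b), in alveolar macrophage-like cells 0.069 (Il18) and 0.67 (Il1a), and in B-like cells 2.32 (Il1b). Thinning to 1000 UMIs lowered the share of cells with an Il1b UMI to 58.6% to 75.2% by library in monocyte/macrophage-like and 30.4% to 55.1% in alveolar macrophage-like cells. Depth limits Il1r1 most, with 337 UMIs in all.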

Other observations

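Nlrp3 was lowest in PD-L1 KO 2 in each of the 8 named clusters with at least 20 cells in every library and a mean of at least 10 CPM, and Il1b was lowest there in 7 of 14 such clusters. Clusters of a library share its preparation and depth, so these counts are not independent results, and they were noticed after the data were seen. In alveolar macrophage-like cells the 2 libraries labelled PD-L1 KO were the highest and the lowest for Il1a (196 and 74.5 CPM), with both libraries labelled WT between them.

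Mixed clusters held 33.8% of the Il1b UMIs. In the 3 with the highest Il1b level (8178, 6779 and 4547 CPM), led by Trac, Iglc1 and Adgre4, S100a8 and S100a9 were also high, and Il1b per 100 of their UMIs was 12.03 to 18.7, 10.03 to 20.3 and 14.9 to 23.7 by library, all within the neutrophil-like range. Il1rl1, the IL-33 receptor gene, chosen with Il33 after their values were seen, stood at 418 to 693 CPM in the cluster named ILC2/gamma-delta-like, while Il33 had 231 UMIs in all cells, 207 of them in mixed clusters.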
